A study of Mus musculus with 36 samples.

Results

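The genes described here are 44 genes of the lysosome: 16 genes of its proton pump and 28 genes of its other parts. The members were chosen by name, with earlier results of these data known, as a list of pump subunits, hydrolases and membrane proteins. They were matched to mouse Ensembl identifiers in the 49585 genes listed per library. By role they are 6 subunits of the membrane-embedded V0 sector of the pump, 8 subunits of its cytosolic V1 sector, 2 accessory subunits, 19 hydrolases, 2 lumenal carriers and 7 membrane proteins. All 44 had at least 10 counts in every library, and all 44 passed the filter on low counts in both fits.

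The lysosome degrades proteins, lipids and sugars with hydrolases that work at acid pH. The vacuolar ATPase keeps the lumen acid: its V1 sector hydrolyses ATP and turns a rotor, and its V0 sector lets protons through the membrane. Many genes of both kinds are known targets of TFEB and TFE3, transcription factors that enter the nucleus when lysosomes or mitochondria are stressed.

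Bulk RNA sequencing was done on mouse embryonic fibroblast lines (MEFs) that carried 2, 1 or 0 N129D knock-in alleles of Tbk1, the gene of a kinase of antiviral signalling and selective autophagy. Of the 3 hom lines, with N129D on both alleles, 1 was named E1.4 and the others E2.2 and E2.9. Of the 4 het lines, with 1 N129D allele, 1 was E1.3 and the rest were E2.5, E2.6, E2.8. Of the 3 WT lines, with no N129D allele, 1 was E1.5 and the others E2.1 and E2.7. Each of the 10 lines gave 1 library after 4 h of antimycin and oligomycin (AO), 1 after 4 h of poly(I:C) and 1 untreated, in all 30 libraries. Antimycin blocks respiratory complex III and oligomycin the mitochondrial ATP synthase, while poly(I:C) is a synthetic double-stranded RNA. Line E1.5, a WT line, also gave 6 libraries labelled by density, 1 for each treatment at high and at low density. The design text speaks of quadruplicates, whereas the labels give 4 lines for het and 3 for hom and WT. Neither the labels nor the design text state doses. The knock-in changes the protein, so Tbk1 RNA does not check the genotype labels.

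Totals ran from 3689144 to 14879227 counts in the 30 libraries, from 16474011 to 22756870 in the 3 high-density libraries and from 5391393 to 6307963 in the 3 low-density libraries. The 10 fibroblast markers summed to 8593 to 18852 CPM (counts scaled to a common library total, with TMM factors) in the 30 libraries, with at most 2 of the 10 at 0 in a library, and erythroid markers summed to at most 0.555 CPM. The 18 macrophage markers summed to 174 to 290.4 CPM in hom line E2.9 and to 38.8 to 62.0 CPM in het line E2.6, against at most 26.8 CPM in the libraries of the other 8 lines. No member was at its highest in E2.9 among the 10 untreated lines. Under AO, E2.9 was the highest line for Atp6v1b2 (208 CPM) and Atp6ap2 (234 CPM), and the lowest for 2 members outside the pump. Under poly(I:C) it was the highest for Atp6v1b2 and Man2b1, and the lowest for 6 members outside the pump. The part of the macrophage markers in these values was not tested. As treatment checks, Hmox1 was higher by 2.76 on the log2 scale under AO and Cxcl10 by 3.94 under poly(I:C). Cxcl10 also rose under AO, by 1.11 (edgeR, adjusted p 0.0251), while Hmox1 changed by 0.11 under poly(I:C) and did not pass. In bulk samples, fewer cells of a type and less RNA per cell cannot be told apart.

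2 lines stood apart in the members themselves. Het line E2.6 had the highest CPM of the 10 untreated lines for 9 of the 16 pump genes and 17 of the 28 other members. Under AO, hom line E1.4 was the highest of 10 lines for 9 pump genes and the lowest for 5, and it was the highest for 6 and the lowest for 12 of the other members. Counts are therefore also given without these lines and without E2.9.

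Levels were compared between genes in untreated cells as CPM per kb of exon, taken as the median of 10 lines. Lamp1, the most abundant glycoprotein of the lysosomal membrane among the members, stood at 243 CPM per kb, and Psap, the precursor of the saposins that present lipids to hydrolases, at 239 CPM per kb. Cathepsin D (Ctsd) followed with 195 CPM per kb. The pump genes spread from 6.02 CPM per kb for Atp6v0a1 to 132 CPM per kb for Atp6v1g1, with a median of 20.6 CPM per kb. The other members had a median of 18 CPM per kb and a wider range, down to 1.20 CPM per kb for Cln3. Neu1, the lysosomal sialidase, and Mcoln1, the lysosomal calcium channel TRPML1, were both low, at 4.79 and 4.22 CPM per kb.

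After 4 h of AO the proton pump genes rose nearly throughout, while the other members rose in part. Of the 16 pump genes 13 rose and none fell, and their median log2 change over the 3 genotypes was 0.53. Of the 28 other members 11 rose and 4 fell, with a median log2 change of 0.17. Over all 13364 genes tested, 17% rose and 16.7% fell, with a median of -0.02. The share of the other members that fell was not above this background. Because the members were chosen with results known, their share was not tested against this background. The pump genes that rose were all 8 of V1, both accessory subunits and Atp6v0b, Atp6v0c and Atp6v0d1 of V0. Each of these 13 was higher under AO than untreated in all 10 lines, and for 7 of them the AO and untreated libraries did not overlap. Among the other members, 12 were higher and 2 lower in all 10 lines, and 2, Neu1 and Mcoln1, did not overlap. These counts by line and by overlap were not made over all genes, so they have no background share. The test was edgeR's quasi-likelihood test with Benjamini-Hochberg adjustment over all genes, with a threshold of 0.05. It did not pair the libraries of a line. Without E1.4, without E2.6 and without E2.9 the pump count was 13 each time, and the other members gave 12 higher and 3 lower, 12 higher and 4 lower, and 10 higher and 2 lower. The count for the other members was 9 without WT line E2.7 and 9 without hom line E2.2, against 15 with all lines. No share of all genes is given for the fits with a line left out. The summed fibroblast markers ran from 8593 to 12667 CPM under AO against 10933 to 13806 CPM untreated, with 4 of 10 markers lower and none higher, and 2 of the 10 at 0 in 1 AO library, that of WT line E1.5. The 6 neural markers summed to 163 to 248 CPM under AO against 219.6 to 459 CPM untreated and the 6 chondrocyte markers to 42.7 to 186 CPM against 54.8 to 224 CPM, and like the fibroblast sum both were lower under AO in 10 of 10 lines. The 7 endothelial markers summed to 17.8 to 41.4 CPM under AO against 9.95 to 26.8 CPM untreated and were higher in 9 of 10 lines. At 0 in a library were at most 3 chondrocyte, 4 endothelial and no neural markers. The muscle, macrophage and epithelial sums were lower under AO in 9, 8 and 7 of 10 lines. The part of these markers in the changes of the members was not tested.

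**Figure D1:**
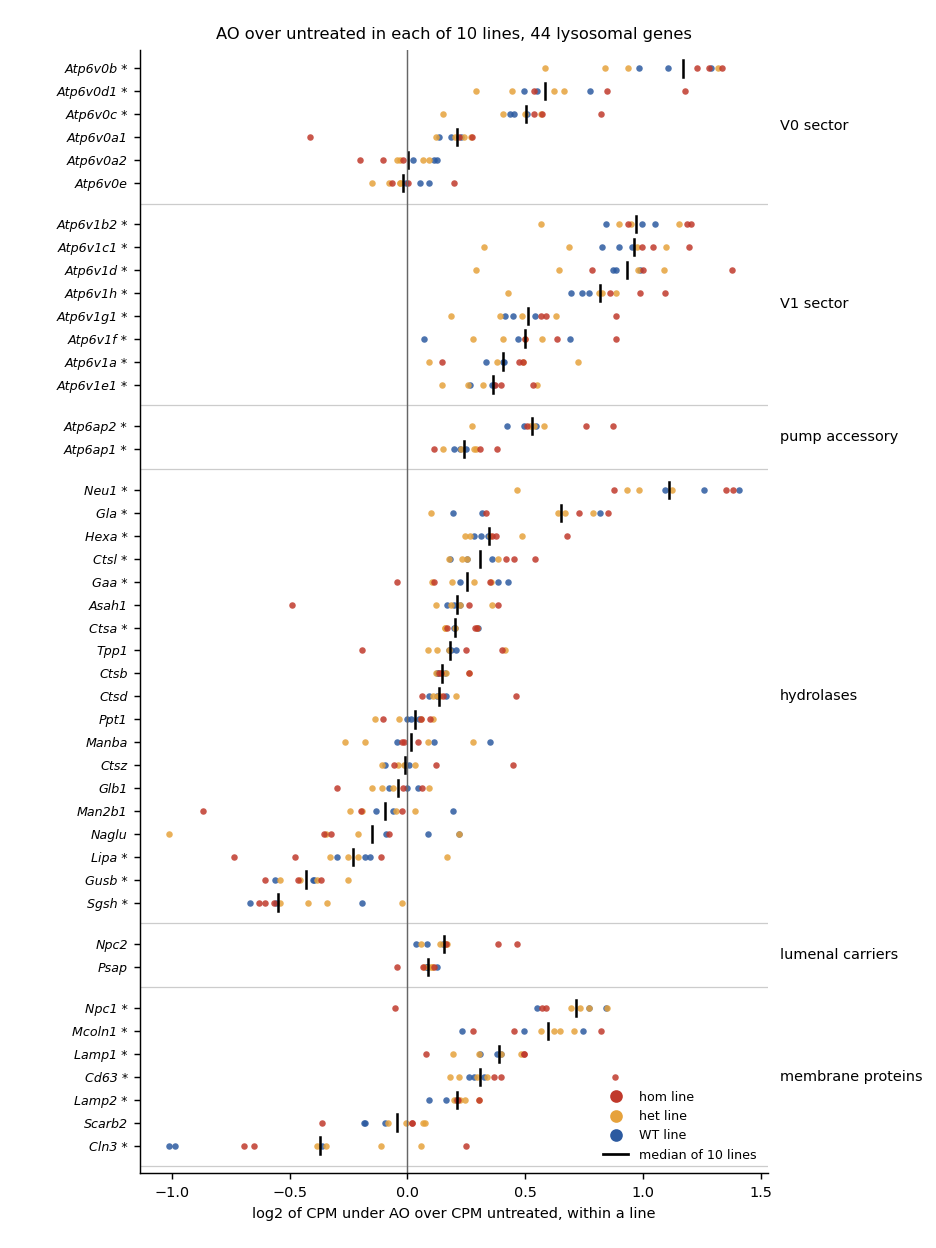
Log2 of CPM under AO over CPM untreated within each of the 10 lines (horizontal axis) for the 44 members (vertical axis), grouped by role; points are lines coloured by genotype, bars are medians of the 10 lines, and a star marks members that passed the test over all lines. All 8 V1 genes lie right of 0 in every line, whereas the hydrolases lie on both sides, from Neu1 to Sgsh.

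The promoters of 36 members were found in the RefSeq table of GRCm38.p6, with 250 bases before and 50 after the start of transcription. CACGTG, the core of the element that TFEB family factors are known to bind, was in the promoters of 15 of these 36 genes, against 7.15% of all 32851 promoters in the table and 8.09% of its 27025 genes. The motif is its own reverse complement, so a match covers both strands. The longer form TCACGTGA, which contains the shorter one, was in 8 of the 36 genes, against 0.974% of all promoters and 1.12% of all genes. Printed here are 150 bases for 4 members that rose under AO and hold the motif, 2 of the pump and 2 of the other group, 5′ to 3′ on the strand of the gene, with each CACGTG in capitals. Those of Atp6v0b, Atp6v0d1 and Mcoln1 run from 100 bases before the start, and that of Gla covers the first 150 bases of its window.
Atp6v0b, chr4:117887280-117887429, minus strand: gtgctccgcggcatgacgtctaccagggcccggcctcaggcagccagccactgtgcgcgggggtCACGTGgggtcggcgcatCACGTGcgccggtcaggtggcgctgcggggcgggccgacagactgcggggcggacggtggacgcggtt
Atp6v0d1, chr8:105566015-105566164, minus strand: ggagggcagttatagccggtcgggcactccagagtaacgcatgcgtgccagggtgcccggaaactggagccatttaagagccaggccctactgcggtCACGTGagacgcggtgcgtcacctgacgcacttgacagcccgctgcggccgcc
Gla, chrX:134601106-134601255, minus strand: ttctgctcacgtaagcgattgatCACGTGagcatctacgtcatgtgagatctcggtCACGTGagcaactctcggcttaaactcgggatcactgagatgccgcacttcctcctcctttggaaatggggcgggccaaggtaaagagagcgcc
Mcoln1, chr8:3500419-3500568, plus strand: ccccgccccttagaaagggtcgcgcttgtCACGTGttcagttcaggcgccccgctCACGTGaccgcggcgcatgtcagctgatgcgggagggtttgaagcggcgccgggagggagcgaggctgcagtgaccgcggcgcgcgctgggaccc
Atp6v0b has 2 matches, which begin 36 and 18 bases before the start, and the single match of Atp6v0d1 begins 3 bases before it. In Mcoln1 the 2 matches begin 71 and 45 bases before the start, and in Gla 227 and 194 bases before it. These are RefSeq starts, which lie inside the GENCODE gene by 62 bases for Mcoln1, 120 for Gla and 4 for Atp6v0b, and 17 bases outside it for Atp6v0d1. Counted from the GENCODE start, the matches of Mcoln1 begin 9 bases before and 17 bases after it, and those of Gla 107 and 74 bases before it. Lamp1 had 4 matches in its window. Matches were not limited to genes that rose. They were in 3 of 9 pump genes that rose and 1 of 2 that did not pass, and among the other members in 6 of 10 that rose, 2 of 4 that fell and 3 of 11 that did not pass. Atp6v0e holds TCACGTGA and had a log2 change of 0.02 under AO, and Cln3 holds it and fell. A match is a string of letters in a window and shows no binding.

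Within the V0 sector the response was split. Atp6v0b, the proteolipid c'' subunit of the proton-conducting ring (chr4:117884326-117887333, minus strand), ran from 108 to 183 CPM under AO with a median of 119 CPM, against 48.1 to 76.3 CPM untreated with a median of 55.5 CPM. All 10 AO libraries lay above all 10 untreated ones, and the gene rose by 1.11 on the log2 scale (SE 0.09, edgeR's quasi-likelihood test, adjusted p 2.55e-09). Atp6v0d1, which couples the ring to the central stalk, ran from 88.2 to 199 CPM under AO with a median of 102 CPM, against 60.2 to 87.8 CPM untreated with a median of 65.0 CPM. Its groups did not overlap by a narrow margin, and the top AO value was that of E1.4, the next being 109.6 CPM in WT line E2.7. Its log2 change was 0.67 (SE 0.11, edgeR, adjusted p 3.09e-05). Atp6v0c, the main ring subunit, ran from 261 to 524 CPM under AO, median 313 CPM, against 196 to 297 CPM untreated, median 216 CPM. These ranges overlapped through E1.4, which was the highest line in both groups, yet the gene was higher under AO in all 10 lines (log2 change 0.51, SE 0.08, edgeR, adjusted p 3.31e-05). 2 pseudogenes of Atp6v0c took 111 and 1 counts over all 36 libraries, against 78032 counts for the gene. Atp6v0a1 and Atp6v0a2, isoforms of the large a subunit, and Atp6v0e had log2 changes of 0.15, 0.00 and 0.02 and did not pass.

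The V1 sector rose as a whole, with a median log2 change of 0.68. Atp6v1b2, the widely expressed B subunit of the catalytic hexamer, ran from 153 to 208 CPM under AO, median 178 CPM, against 79.8 to 115 CPM untreated, median 91.0 CPM. The groups did not overlap, and its log2 change of 0.99 (SE 0.07, edgeR, adjusted p 3.87e-10) was a 1.99-fold change. Atp6v1h, which controls ATP hydrolysis by V1, ran from 119 to 157 CPM under AO, median 143 CPM, against 69.0 to 88.4 CPM untreated, median 80.4 CPM. Atp6v1c1, the C subunit at the contact of the sectors, ran from 106 to 154 CPM under AO, median 139 CPM, against 60.7 to 84.4 CPM untreated, median 71.5 CPM. Both genes had separate groups and rose, Atp6v1h by 0.82 and Atp6v1c1 by 0.92 on the log2 scale (SE 0.06 and 0.07, edgeR, adjusted p 3.87e-10 and 9.41e-10). In Atp6v1b2, E1.4 was the lowest AO library at 153 CPM, whereas in Atp6v1h it was the highest. The other V1 genes rose by 0.91 for Atp6v1d, a stalk subunit, 0.54 for Atp6v1g1, 0.52 for Atp6v1f, 0.40 for the catalytic Atp6v1a and 0.36 for Atp6v1e1.

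Both accessory subunits rose. Atp6ap2, the prorenin receptor and a factor of pump assembly, ran from 169.9 to 234 CPM under AO, median 188 CPM, against 106 to 168 CPM untreated, median 131 CPM. Its groups just failed to touch, and it rose by 0.56 on the log2 scale (SE 0.08, edgeR, adjusted p 4.30e-06). Atp6ap1, which helps to assemble V0, ran from 237 to 319 CPM under AO, median 263 CPM, against 203 to 288 CPM untreated, median 219.7 CPM. Its groups overlapped, with het line E2.6 the highest in both, and its log2 change was 0.24 (SE 0.06, edgeR, adjusted p 0.00239).

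**Figure D2:**
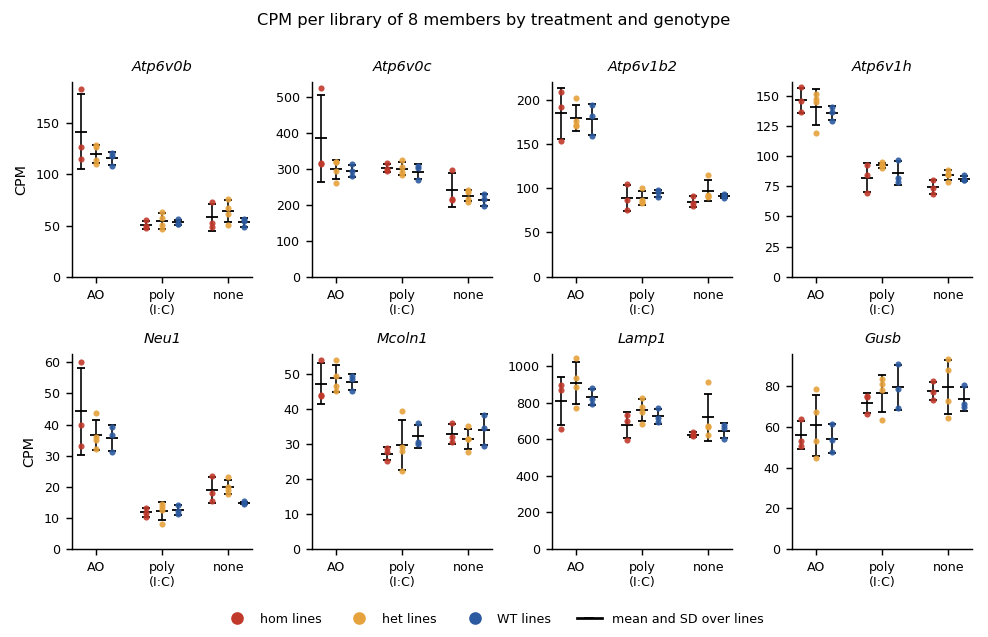
CPM per library (vertical axes, from 0) of 8 members under AO, under poly(I:C) and untreated (none), with hom, het and WT lines side by side; points are libraries and bars are the mean and SD over 3 or 4 lines. Under AO Atp6v0b, Atp6v1b2, Atp6v1h, Neu1 and Mcoln1 lie above their untreated libraries in every genotype, and Gusb was lower under AO in 10 of 10 lines.

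Of the 19 hydrolases 6 rose, 3 fell and 10 did not pass, with a median log2 change of 0.16. Neu1 had the highest fitted change of the 44 members. It ran from 31 to 60.0 CPM under AO, median 36.3 CPM, against 14.5 to 23.5 CPM untreated, median 17.9 CPM. No untreated library reached the lowest AO library, and the log2 change was 1.12 (SE 0.11, edgeR, adjusted p 7.03e-08). Gla, the alpha-galactosidase lost in Fabry disease, ran from 28.6 to 44.1 CPM under AO, median 34.3 CPM, against 20.1 to 30.5 CPM untreated, median 24.2 CPM. It rose by 0.54 on the log2 scale (SE 0.11, edgeR, adjusted p 4.09e-04), with overlap at the untreated library of E2.6. Hexa, the alpha subunit of beta-hexosaminidase, ran from 72.5 to 134 CPM under AO, median 80.2 CPM, against 56.6 to 113 CPM untreated, median 64.4 CPM. E2.6 was far above the others in both groups, and the log2 change was 0.37 (SE 0.11, edgeR, adjusted p 0.0111). Ctsl, Gaa and Ctsa, a cathepsin, the acid alpha-glucosidase and the protective protein of Neu1, rose by 0.33, 0.24 and 0.23 on the log2 scale.

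Gusb, the beta-glucuronidase, went the other way. It ran from 44.5 to 78.4 CPM under AO, median 53.4 CPM, against 64.6 to 93.3 CPM untreated, median 75.2 CPM. The ranges overlapped, but it was lower under AO in all 10 lines and its log2 change was -0.44 (SE 0.09, edgeR, adjusted p 7.71e-04). Sgsh, the sulfatase of heparan sulfate, ran from 6.77 to 16.7 CPM under AO, median 10.5 CPM, against 9.06 to 17.3 CPM untreated, median 13.2 CPM. It too was lower in all 10 lines and fell by 0.46 on the log2 scale (SE 0.18), but its adjusted p of 0.0499 in edgeR sits at the threshold. That call was lost in DESeq2 (adjusted p 0.0512) and when any of 7 lines was left out, among them E1.4 (0.0747) and E2.9 (0.0744). Lipa, the acid lipase, fell by 0.26 on the log2 scale. The 10 hydrolases that did not pass, among them Ctsb, Ctsd, Asah1 and Glb1, had log2 changes from -0.18 to 0.19. That test does not pair the libraries of a line. Ctsb and Ctsd were higher under AO in all 10 lines, Asah1 in 9 and Glb1 in 3.

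Neither lumenal carrier passed. Psap had a log2 change of 0.08, with 576 to 811 CPM under AO, median 688 CPM, against 549 to 755 CPM untreated, median 656 CPM. Npc2, which hands cholesterol to NPC1, had a log2 change of 0.19, with 260.2 to 419.9 CPM under AO, median 289.5 CPM, against 209 to 304 CPM untreated, median 272 CPM. Its highest AO value was E1.4, and its adjusted p in edgeR was 0.107, although it was higher under AO in all 10 lines.

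Of the 7 membrane proteins 5 rose and 1 fell, with a median log2 change of 0.36. Npc1, the cholesterol exporter, ran from 43.8 to 78.9 CPM under AO, median 74.0 CPM, against 39.2 to 50.8 CPM untreated, median 46.0 CPM. In 9 lines the AO library was above every untreated library, and the exception was E1.4 with 43.8 CPM under AO and 45.5 CPM untreated. Its log2 change was 0.63 (SE 0.09, edgeR, adjusted p 9.63e-06). Mcoln1 ran from 43.8 to 54.1 CPM under AO, median 47.6 CPM, against 27.7 to 38.4 CPM untreated, median 31.8 CPM, with no overlap. It rose by 0.55 on the log2 scale (SE 0.08, edgeR, adjusted p 1.62e-05). Lamp1 ran from 659 to 1044 CPM under AO, median 876 CPM, against 604 to 912 CPM untreated, median 651 CPM. It rose by 0.36 (SE 0.07, edgeR, adjusted p 5.42e-04), and E2.6 was the highest line in both groups. Cd63, a tetraspanin of late endosomes, and Lamp2 rose by 0.38 and 0.21 on the log2 scale. A pseudogene of Cd63 took 439 counts over all libraries, against 141655 counts for the gene. Cln3, the Batten disease protein, fell by 0.43. Its levels were low, 3.41 to 8.25 CPM under AO against 5.13 to 7.93 CPM untreated, and it was lower in 8 of 10 lines. Scarb2, the receptor that brings glucocerebrosidase to lysosomes, did not pass at -0.11.

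Summed over members, the pump took a larger share of the lysosomal transcripts under AO. The 16 pump genes summed to 2162 to 2870 CPM under AO, median 2287 CPM, against 1493 to 1926 CPM untreated, median 1593 CPM. The 28 other members summed to 5571 to 7387 CPM under AO, median 5900 CPM, against 4828 to 6654 CPM untreated, median 5006 CPM. The ratio of the pump sum to the other sum was 0.308 to 0.476 under AO, against 0.290 to 0.346 untreated, and it was higher under AO in 10 of 10 lines. The lowest AO ratio was that of E2.6 and the highest that of E1.4. No test is given for these sums, because the members were chosen with results known.

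**Figure D3:**
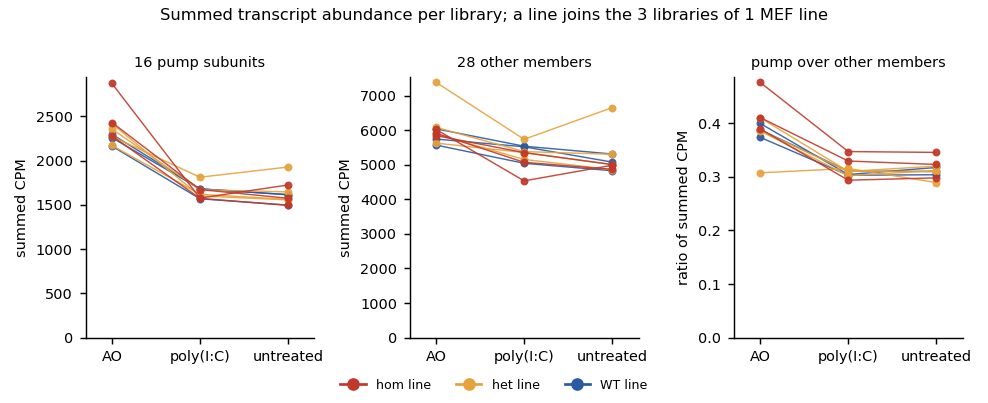
Summed CPM of the 16 pump genes (left), of the 28 other members (middle) and their ratio (right) in each library under AO, under poly(I:C) and untreated; lines join the 3 libraries of 1 MEF line and are coloured by genotype. The pump sums lie between 2162 and 2870 CPM under AO, all above the untreated maximum of 1926 CPM, and 1 het line, E2.6, has the highest sum of the other members.

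Poly(I:C) moved few members in the fit without pairing. Of the pump genes 1 rose and 1 fell, and of the other members none rose and 3 fell. Over all genes 9.91% rose and 11.8% fell, and the share of the members that passed was not above this background in either direction; DESeq2 gave the same counts. Atp6v0c rose by 0.40 on the log2 scale (SE 0.08, edgeR, adjusted p 0.00119): it ran from 269.7 to 325 CPM under poly(I:C), median 300.2 CPM, against 196 to 297 CPM untreated, median 216 CPM. Atp6ap2 fell by 0.33 (SE 0.08, edgeR, adjusted p 0.00335), with 87.4 to 133 CPM under poly(I:C), median 106 CPM, against 106 to 168 CPM untreated, median 131 CPM. Both sets of ranges overlapped, but each gene moved the same way in all 10 lines. Fibroblast markers summed to 13824 to 18852 CPM under poly(I:C) against 10933 to 13806 CPM untreated, with no overlap and 1 of 10 markers higher in the test. The fibroblast, neural and endothelial sums were higher under poly(I:C) in 10 of 10 lines and the chondrocyte and muscle sums in 9, and the part of these markers in the result was not tested.

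Neu1 had the lowest log2 change under poly(I:C), -0.55 (SE 0.12, edgeR, adjusted p 0.0014), with 7.94 to 14.6 CPM, median 12.2 CPM, against 14.5 to 23.5 CPM untreated, median 17.9 CPM. The groups touched at their edges only, and it was lower in all 10 lines. Gla fell by 0.39 (SE 0.11, edgeR, adjusted p 0.0147), with 13.5 to 24.7 CPM under poly(I:C), median 18.3 CPM, against 20.1 to 30.5 CPM untreated, median 24.2 CPM. Its call was lost without WT line E1.5 (adjusted p 0.0832). Cln3 fell by 0.45. With the line as a block, 3 pump genes rose and 2 fell, and 4 of the other members rose and 4 fell, against 19.8% higher and 19.6% lower over all genes in that fit. The added calls were small, for example 0.25 for Atp6v0d1, 0.21 for Ctsd and -0.18 for Ctsl on the log2 scale. The pump genes summed to 1568 to 1811 CPM under poly(I:C), median 1644 CPM, and their ratio to the other members was higher than untreated in 5 of 10 lines. Leaving out E1.5 gave 3 members in all and leaving out E1.4 gave 8, against 5 with all lines, with no share of all genes given for these 2 fits.

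Set directly against poly(I:C), AO gave higher levels of 12 pump genes and lower levels of none, and higher levels of 11 and lower levels of 2 of the other members. Over all genes 21% were higher and 20.4% lower. The 2 treatments share no libraries, and each line gave both. For 10 pump genes and for Gla, Neu1 and Mcoln1 the AO and poly(I:C) libraries did not overlap. Overlap was not counted over all genes, so no background share is given. Neu1 differed the most, by 1.67 on the log2 scale (SE 0.12, edgeR, adjusted p 1.43e-10), with the ranges of 31 to 60.0 CPM under AO and 7.94 to 14.6 CPM under poly(I:C) far apart. Atp6v0b differed by 1.24, with 108 to 183 CPM under AO and 46.7 to 63.7 CPM under poly(I:C). Atp6v1c1 differed by 1.04, Atp6v1b2 by 0.99 and Atp6v1h by 0.70, the last with 119 to 157 CPM under AO and 69.4 to 97.0 CPM under poly(I:C). Atp6v0c, which rose under both treatments, differed by 0.11 and did not pass (edgeR, adjusted p 0.286). Lipa and Gusb were lower under AO by -0.47 and -0.42. Hexa was higher by 0.34, a call lost without E2.1, E2.7 or E1.4 (adjusted p 0.0552 to 0.0703). The fibroblast sum was 8593 to 12667 CPM under AO and 13824 to 18852 CPM under poly(I:C), and the neural sum 163 to 248 CPM and 299 to 563 CPM, neither with overlap, and 6 of 10 fibroblast and 2 of 6 neural markers were lower under AO. The part of these markers was not tested.

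**Figure D4:**
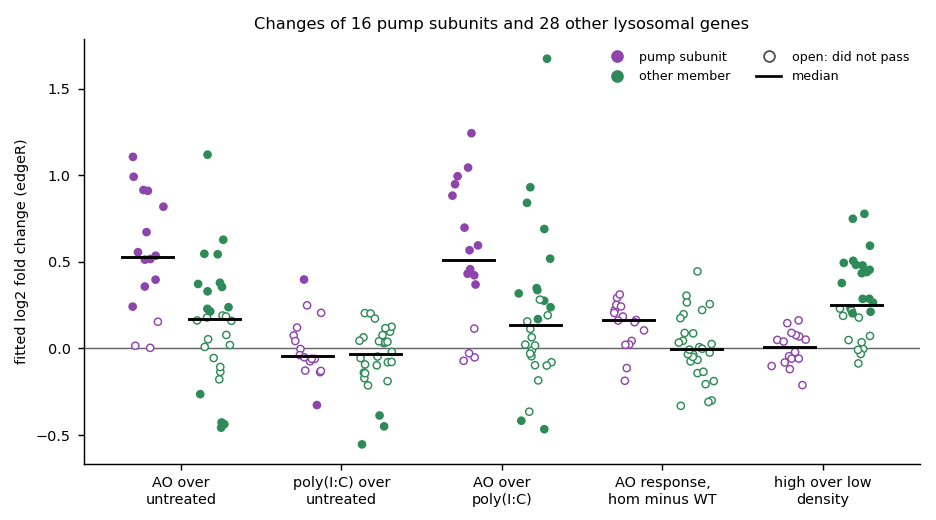
Fitted log2 fold changes from edgeR (vertical axis) of the 16 pump genes and the 28 other members in 5 comparisons (horizontal axis); filled points passed the test, open points did not, and bars are medians. Most pump genes stand above 0 under AO with a median of 0.53 and around 0 with density, whereas the other members are mostly above 0 with density.

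Within single genotypes, AO raised 11 pump genes and 4 other members in hom lines, 7 and 4 in het lines and 6 and 3 in WT lines, and lowered no member. Over all genes 7.36% rose and 5.73% fell in hom lines, 6.17% and 4.95% in het lines, and 4.23% and 3.43% in WT lines. Atp6v0b, Atp6v1b2, Atp6v1c1, Atp6v1d, Atp6v1h, Atp6ap2, Neu1 and Mcoln1 passed in each of the 3. With the line as a block the counts were closer: 26 of 44 members passed in hom lines, 24 in het lines and 21 in WT lines, against 29.7%, 27.5% and 22.9% of all genes. Of these, 13, 13 and 11 were pump genes, all higher. A fit on the 6 hom libraries alone gave no member, with 13 members at an unadjusted p under 0.05 and 3 genes passing among all. DESeq2 on the 30 libraries gave 17 members in hom lines, against 17.7% of all genes. A fit on the WT libraries alone gave 19, for which no share of all genes is given. Poly(I:C) within genotypes changed no member in hom lines, 1 in het lines (Neu1, log2 change -0.72, edgeR, adjusted p 0.0219) and none in WT lines, with 4 and 3 members in hom and WT lines at an unadjusted p under 0.05. Over all genes 1.28%, 4.67% and 3.2% changed. DESeq2 gave none, 2 and 1 members, against 2.68%, 6.34% and 5.75% of all genes.

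The median log2 change of the pump genes under AO was 0.71 in hom, 0.43 in het and 0.46 in WT lines. Without E1.4 the hom median was 0.56, and without E2.6 the het median was 0.52. The difference of the AO response from that of WT passed for no member in hom lines or in het lines, and for 0.0% of all genes in both. No member had an unadjusted p under 0.05 in either, in edgeR or in DESeq2. The precision allows sizeable differences: the response of Atp6v0b was 0.16 higher in hom than in WT lines on the log2 scale, with a 95% interval of -0.29 to 0.62, and that of Atp6v1b2 0.15 higher, with an interval of -0.19 to 0.50. For het minus WT the difference of Atp6v0b was -0.22, with an interval of -0.64 to 0.21. The response to poly(I:C) also differed for no member, with 0.0% of all genes for hom and for het and no member at an unadjusted p under 0.05 in either tool.

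Levels did not pass between genotypes for any member in any of the 6 comparisons with edgeR or DESeq2. Under AO, hom against WT gave 0.0% of all genes and het against WT 0.0%. Under poly(I:C) they gave 0.254% and 0.0%, and untreated 0.015% and 0.0%. At an unadjusted p under 0.05 edgeR gave 3 members for hom against WT under AO, 1 under poly(I:C) and 1 untreated, and 1 for het against WT untreated. The 3 under AO were Atp6v0d1, Atp6v0c and Ctsz. Atp6v0d1 had 199, 109 and 100.5 CPM under AO in hom lines E1.4, E2.2, E2.9, against 88.2, 88.2 and 109.6 CPM in WT lines E1.5, E2.1, E2.7. Only E1.4 was clear of the WT range. The log2 difference was 0.51 (95% interval 0.13 to 0.89, edgeR, adjusted p 0.42), and without E1.4 it was 0.13. Atp6v0c had 524, 314 and 316 CPM in the same hom lines, against 293, 279 and 312 CPM in the WT lines, and its log2 difference of 0.39 became 0.09 without E1.4. For Ctsz the difference of 0.54 became 0.14. In all, the 3 members at an unadjusted p under 0.05 became 0 without E1.4, and 5 pump genes and 6 other members without E2.9, with none passing the adjusted test in either.

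Between densities the calls lay among the other members. In WT line E1.5 at high against low density, none of the 16 pump genes passed in edgeR's quasi-likelihood test or in DESeq2, with 2 of them at an unadjusted p under 0.05 in edgeR, while 17 of the 28 other members were higher and none lower. The median log2 differences were 0.01 and 0.25. Over the 12229 genes of this fit, 8.62% were higher and 8.41% lower. Of the pump genes 3 were higher and 1 was lower in all 3 treatments, against 21 and none of the other members. Such agreement of the 3 pairs was not counted over all genes. The count of 17 rests on 1 line and 1 library for each density and treatment, so its p-values measure the spread between libraries of 1 line. It was 11 in DESeq2, where 4.62% of all genes were higher and 6.23% lower. Without the poly(I:C) libraries it was 10, and without the untreated ones 10, with no share of all genes given. All these calls were higher. The high-density libraries were also the deeper ones, with totals of 16474011 to 22756870 counts against 5391393 to 6307963 counts, and density and depth cannot be told apart in them. Against the 3 libraries of E1.5 with no density label, which had 5213075 to 7948232 counts, high density gave 5 members higher and none lower (Gaa, Lamp2, Npc2, Lipa and Neu1), against 1.85% and 0.548% of all genes. Low density gave none higher and 2 lower (Ctsb and Lipa), against 0.932% and 1.53% of all genes. No pump gene passed in either, with 1 and 2 at an unadjusted p under 0.05 in edgeR, and DESeq2 was not run on these.

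**Figure D5:**
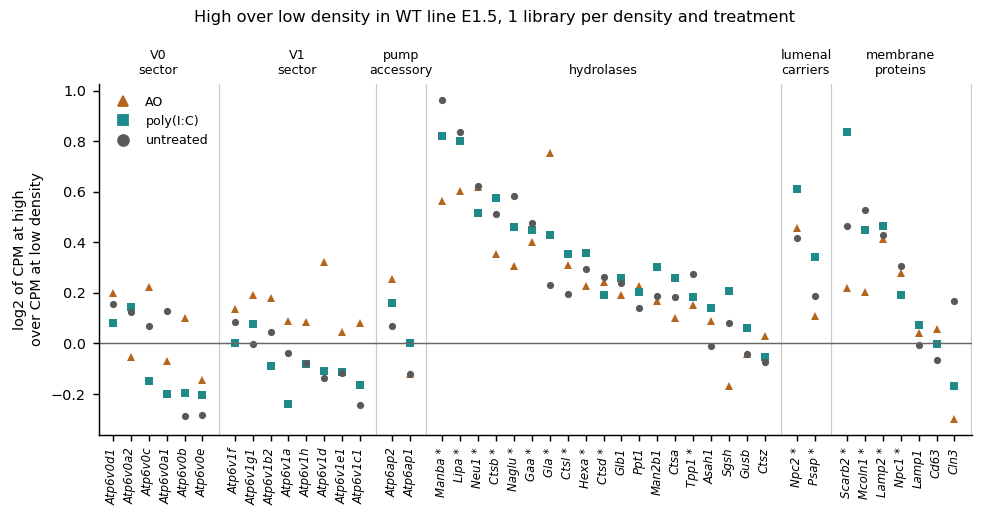
Log2 of CPM at high over CPM at low density in WT line E1.5 (vertical axis) for the 44 members by role (horizontal axis); each symbol is 1 pair of libraries under AO, under poly(I:C) or untreated, and a star marks members that passed over the 3 treatments. Manba and Lipa are highest in the untreated pair, Gla under AO and Scarb2 under poly(I:C), and the pump genes scatter around 0.

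Lipa was among the clearest. It had 93.0, 126 and 108 CPM at high density under AO, under poly(I:C) and untreated, against 61.1, 72.6 and 60.4 CPM at low density. All 3 pairs lay the same way, and the log2 difference was 0.75 (SE 0.08, edgeR, adjusted p 4.6e-05). Manba, the beta-mannosidase, had 16.9, 13.6 and 17.4 CPM at high density in the same order, against 11.5, 7.69 and 8.94 CPM at low density. It differed by 0.78 (SE 0.13, edgeR, adjusted p 0.00152). Neu1 had 52.1, 13.6 and 23 CPM at high density, against 33.9, 9.51 and 14.9 CPM at low density, a log2 difference of 0.59. At both densities it was highest under AO and lowest under poly(I:C). Npc2 and Ctsb, cathepsin B, differed by 0.49 and 0.48, Lamp2 and Scarb2 by 0.43 and 0.51, and Gaa by 0.44. Calls for Gla, Hexa, Psap, Npc1 and Mcoln1 were lost in 2 or more of the alternatives tried. Atp6v0b had 132, 58.3 and 62.0 CPM at high density, against 124, 66.8 and 75.6 CPM at low density, so it was higher in 1 pair and lower in 2. The AO response of the pump was seen at both densities: the pump genes summed to 2449 CPM under AO and 1621 CPM untreated at high density, and to 2265 CPM under AO and 1657 CPM untreated at low density. Fibroblast markers summed to 8926 to 15403 CPM at high and 11192 to 16858 CPM at low density, with 5 of 9 tested markers higher and 2 lower and at most 1 of the 10 at 0. The 6 chondrocyte markers summed to 33.5 to 84.4 CPM at high and 56.7 to 120.0 CPM at low density, with 2 of 3 tested markers lower. The 7 muscle markers summed to 29.3 to 39.1 CPM at high and 56.3 to 84.0 CPM at low density with no overlap, and the 1 tested was lower. The part of these cells in the result was not tested.

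Other genes of the organelle were counted from lists named by function, and are given here as counts with no test of the lists, to be read against the 17% of all genes that rose and 16.7% that fell. Of 10 tested genes among other pump subunits and assembly factors, 4 rose and 1 fell under AO, with a median log2 change of 0.26. The assembly factors Tmem199 and Ccdc115 rose by 0.53 and 0.63, and the pump-binding proteins Wdr7 and Dmxl1 by 0.48 and 0.58. The gene that fell was Atp6v1g2 at -0.83, named after its value was seen. Of 33 other hydrolases and their partners 8 rose and 3 fell, with a median log2 change of -0.01. Dpp7 and the carboxypeptidase Scpep1 rose by 0.97 and 0.54, and the phospholipase Pla2g15 fell by 0.62. Of 22 other membrane proteins 11 rose and 3 fell, with a median of 0.32. The cystine exporter Ctns, the chloride exchanger Clcn7 and Lmbrd1 of cobalamin export rose by 0.997, 0.84 and 0.67, and the nucleoside transporter Slc29a3 fell by 1.05. Of 10 genes of hydrolase sorting 3 rose and 2 fell, and the 2 that fell were Gnptab and M6pr of the mannose 6-phosphate route, at -0.40 and -0.32. Of 17 tested genes of the TFEB family and of nutrient sensing at the lysosome 7 rose and none fell. Among them were Flcn and its partner Fnip2, the GTPase gene Rragc and Lamtor3 of its membrane anchor, at 1.35, 1.54, 1.03 and 0.96.

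Under poly(I:C) more genes of each list fell than rose, as over all genes, of which 9.91% rose and 11.8% fell. The counts are small, and no list was tested against this background. The other pump genes gave none that rose and 2 that fell, the other hydrolases 1 and 5, the other membrane proteins 1 and 6, the sorting genes none and 2, and the TFEB and nutrient-sensing genes 1 and 3. Flcn, which rose under AO, fell by 0.51 under poly(I:C) (edgeR, adjusted p 6.45e-04). Between densities, where 8.62% of all genes were higher and 8.41% lower, the other hydrolases gave 11 of 31 higher and none lower, the other membrane proteins 2 of 21, the TFEB and nutrient-sensing genes 3 of 17 and the other pump genes 1 of 9, all higher. The most raised of them by density, picked after their values were seen, were the cathepsin genes Ctsf at 1.39 and Ctso at 0.80 and, among the pump genes, Tcirg1, which codes for the a3 subunit, at 0.84.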

How the data were processed

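RNA was sequenced from 36 MEF libraries: 10 lines under 3 treatments, and 6 libraries of line E1.5 with a density label. The authors deposited expected counts per gene, made with STAR and RSEM on mm10 per the submitters' processing notes; tool versions and the strand setting were not given in the sources used here, so reads of antisense partners cannot be told apart. The counts were rounded to whole numbers. 49326 of 49585 Ensembl identifiers matched GENCODE vM21, and promoters came from RefSeq, GRCm38.p6. No column was left unmapped (0). Totals of the 30 libraries had a median of 6511845 counts, and the range of totals limits the precision of low genes.

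Genes were filtered with filterByExpr (minimum count 10, minimum total 15), scaled by TMM and tested with edgeR 4.0.16 (quasi-likelihood test, R 4.3.3, limma 3.58.1) in 1 fit of 30 libraries by genotype and treatment (13364 genes), and 1 fit of the 9 libraries of line E1.5 by density and treatment (12229 genes), after being tested on simulated data. P-values were adjusted by Benjamini-Hochberg over all genes tested, with a threshold of 0.05, and intervals are 95% from the standard error. "Mean of genotypes" gives hom, het and WT equal weight. Alternatives were DESeq2 1.42.0, RLE size factors, no filter, fits on the compared groups, the line as a block, and leaving out each line or each treatment.

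Each line gave a library for every treatment, so the same line pairs the libraries: same-line deviations from group means correlated at r 0.342 to 0.765 over 30 pairs. Libraries of 1 group differed by 5.34 to 60.7 in chi-square per degree of freedom, and none was counted as a repeat. Whether lines came from separate embryos is not given in the sources used here, so p-values measure the spread between lines.

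The members, the lists and the promoters printed were chosen with earlier results of these data known. Values per library are given for up to 3 members of each role with the smallest p under AO (4 for hydrolases), for members that passed between genotypes or between AO and poly(I:C) (up to 5), and for the most raised and most lowered member of each treatment; others are named by direction. Of each other list up to 4 genes are named by smallest p under AO.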

Additional observations from a re-analysis of the deposited data

Results flagged for a closer look

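Among the het lines, where 4 lines make a group, 4 of 60 groups of named members held a line whose distance to the nearest other, as a share of the range, was above Dixon's 95% critical value for 4 values. Chance alone gives about 1 in 20 such groups. Under AO, Atp6v1b2 stood at 202 CPM in het line E2.8, against 170.4 to 176 CPM in the other het lines. In untreated cells, Atp6v1b2 stood at 115 CPM in het line E2.6, against 90.5 to 91.9 CPM in the others. Hexa stood at 113 CPM in untreated cells of E2.6, against 63.4 to 66.2 CPM in the other het lines, and at 91.8 CPM under poly(I:C), against 70.2 to 71.8 CPM. E2.6 is also the het line with the highest macrophage marker sum, 38.8 to 62.0 CPM, and its part in these values was not tested.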

How the results depend on the processing

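Of 315 recomputed counts of members over 20 contrasts, 282 stayed within 1.5 times the reported count, and of 41 values of named members 33 kept their call in every alternative run, with 33 calls lost in 559 recomputations and no change of direction (0). The 13 pump genes higher under AO over the genotypes were 13 in every alternative, while the 15 other members were 8 without the low-count filter and 9 to 16 with 1 line left out. With the replicate block, which pairs the libraries of a line, AO changed 26 members in hom lines against 15 without it, 24 against 11 in het lines and 21 against 9 in WT lines. On the compared groups alone AO changed 0 members in hom lines (13 at an unadjusted p under 0.05 in edgeR, 17 in DESeq2 on all libraries) and 19 in WT lines. For poly(I:C) over the genotypes the block gave 13 members against 5, namely 5 pump genes and 8 others. Leaving out 1 line gave 3 to 8 members, of them 1 to 5 outside the pump. Poly(I:C) in het lines gave 1 member, and 2 in DESeq2, 4 with the block, 0 on the compared groups alone and 0 with any 1 het line left out. In hom lines it gave 0, and 3 with the block and 0 to 1 with 1 line left out. In WT lines it gave 0, and 1 in DESeq2, 2 on the compared groups alone and 2 with the block. The 17 members higher at high density, all outside the pump, were 11 in DESeq2, 10 without the poly(I:C) libraries and 10 without the untreated ones. The fits that leave some libraries out also hold fewer libraries, and the cause of these shifts was not tested. For fits without a line, a treatment or the filter, and on the compared groups alone, no share of all genes is given.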
